A study of Mus musculus with 3 samples.

Results

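The proteasome genes were examined in adult cortex of mice heterozygous for the Δex2 allele of Gtf2i, whose name stands for loss of exon 2. The set was chosen by symbol alone: every gene probe whose accession matched a RefSeq gene with a symbol starting in Psma, Psmb, Psmc, Psmd, Psme, Psmf or Psmg. This gave 63 of the 41174 gene probes of the array, standing for 46 genes. The other 11 RefSeq symbols that meet the rule had no matched probe here: Psma5-ps, Psma8, Psmb5-ps, Psmb6-ps, Psmb6-ps2, Psmb7-ps1, Psmb7-ps2, Psmd1, Psme2, Psme2b and Psmg4. Of the 63 probes, 61 were flagged reliable on at least 2 of the 3 arrays and were tested, and they covered all 46 genes. The untested probes were a second one for Psmb11 and a second one for Psme4, each reliable on 0 arrays. None of the member spots was saturated (0 on each array).

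The proteasome degrades proteins tagged with ubiquitin. Its barrel-shaped core is built of outer alpha rings (Psma genes), which gate the entrance, and inner beta rings (Psmb genes), which hold the cutting sites. A regulatory particle caps the core: its base carries a ring of ATPases (Psmc genes) that unfold substrates, and its lid (part of the Psmd genes) holds the enzyme that removes ubiquitin. Alternative catalytic subunits (Psmb8, Psmb9 and Psmb10) form the immunoproteasome, Psme proteins are alternative caps, and the Psmg proteins with some Psmd proteins help to assemble the complex. In neurons the proteasome takes part in turnover of synaptic proteins.

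The groups were cortex heterozygous for the allele, Gtf2i(+/Δex2), and wild-type cortex, WT (+/+), each taken at 16 weeks of age. Both genotypes were on a background of 98.4% C57BL/6J with 1.6% 129Sv/CD1, and every hybridised RNA was a pool of 3 to 5 mice. On each of 3 two-colour arrays the mutant RNA shared the slide with wild-type RNA; per the labels, Cy3 marked the mutant RNA on replicates 1 and 3, and Cy5 marked it on replicate 2. Whether separate pools were used for each array is not given, so the spread between arrays may be technical, and their number limits the precision. The values below are the channel intensities deposited for each genotype and the log2 ratio of mutant over wild type. That direction is likely rather than certain: it rests on the titles, on the wording of the deposited readme, and on control spots (Pro25G) whose median log2 ratio was 4.51, -4.54 and 4.58 on replicates 1, 2 and 3, turning with the dyes. It also takes for granted that Cy3 is the dye on the oligonucleotide of those spots. The mutated gene itself gave log2 ratios of -0.32 ± 0.05 and -0.47 ± 0.04 (SD, n = 3 arrays) on its probes, with limma adjusted p-values of 0.00505 and 0.0026. Which exon either Gtf2i probe reads was not determined here.

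Libraries and tissue were checked before the results. Reliable gene spots made up 67.8%, 64.4% and 69.7% of replicates 1, 2 and 3. Across the 61 tested member probes the log2 ratios correlated at 0.81 between replicates 1 and 2, 0.79 between 1 and 3 and 0.55 between 2 and 3, against 0.82, 0.78 and 0.62 over all 27530 tested probes. The probes share the 3 arrays, and without the Psmb11 probe the member values were 0.75, 0.70 and 0.41. Of 10 markers of cortical glutamatergic neurons, 9 were tested, with a median log2 ratio of -0.21. Among these 5 were lower and 1 was higher, against 20.0% and 16.0% of all tested genes. Of 7 thalamus markers, 5 were tested: their summed intensity was 5688 in mutant and 2314 in wild-type RNA on replicate 3, against 6537 and 5897 on replicate 1 and 7440 and 6345 on replicate 2. Of the thalamus markers 1 was higher and 0 were lower by the adjusted test. In this bulk tissue a smaller number of cells of a type and less RNA per cell cannot be told apart.

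A probe was called when its moderated t-statistic from limma passed an adjusted p (Benjamini-Hochberg over all 27530 tested probes) of 0.05, and a gene was read by its brightest tested probe. By this rule 12 of the 46 proteasome genes (26.1%) were lower in mutant cortex, 5 (10.9%) were higher and 29 (63.0%) were not called. The same rule called 20.0% of all 12721 tested genes lower and 16.0% higher, and among probes it called 18.9% lower and 15.0% higher, 33.9% in all. Of the member probes, 15 (24.6%) were lower and 6 (9.84%) were higher. The median log2 ratio of the 46 genes was -0.07, with medians of -0.04, -0.01 and -0.09 on replicates 1, 2 and 3, against -0.01 over all tested genes. The median size of change, without sign, was 0.12 on the log2 scale for the proteasome genes and 0.12 for all tested genes. Mean ratios were negative for 31 genes and positive for 15. The share of genes called lower was a little above that background, the share called higher a little below it. The lower share fell below the background without replicate 1 (2.17% against 5.59%) and with negative controls subtracted (17.4% against 19%).

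**Figure D1:**
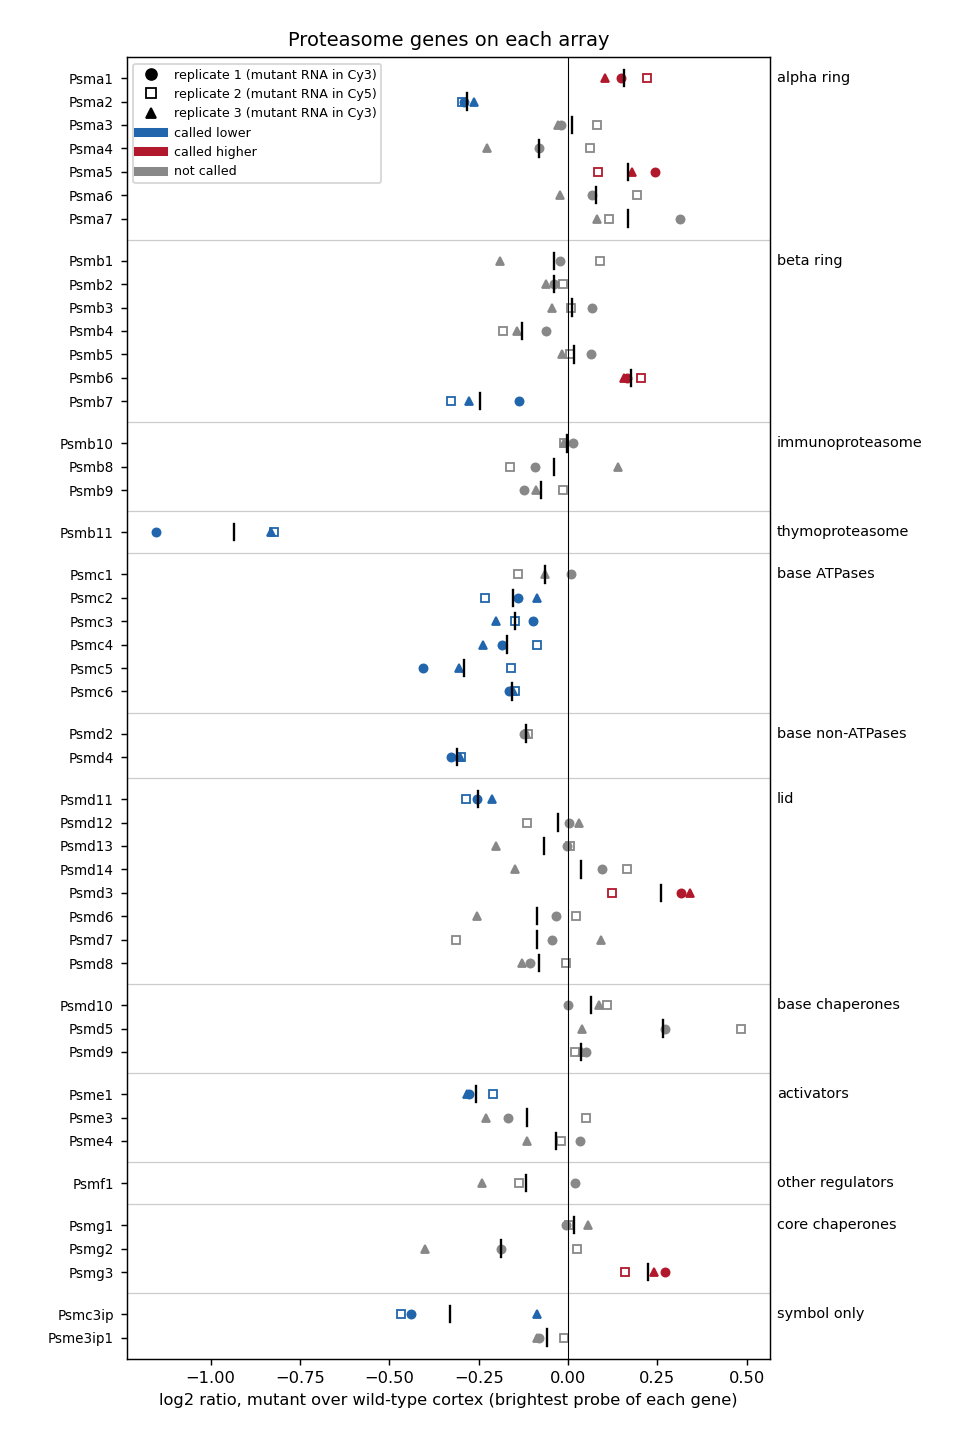
Log2 ratio of mutant over wild-type cortex (horizontal axis) for the brightest probe of each of the 46 proteasome genes, grouped by role; each point is 1 of 3 arrays, the vertical bar is their mean, blue marks genes called lower, red genes called higher and grey genes not called. Psmb11 stands apart on the left with ratios of -1.15 to -0.82, and 5 of the 6 base ATPases are blue.

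Promoter sequence is shown for 4 called genes because each holds letters of a motif linked to proteasome gene control, and because the first pair carries the same motif and moved in opposite directions. Each runs from 250 bases before to 50 after the gene's start, on the gene's strand, from RefSeq on GRCm38.p6, with the matched letters in capitals. Psmc6 lies on the plus strand at chr14:45329574-45329873 and Psmb6 on the plus strand at chr11:70525107-70525406. In both the capitals mark the antioxidant response element core TGACNNNGC, which Nfe2l1 and Nfe2l2, activators of proteasome genes, recognise (reverse-strand letters in Psmc6). Psmd4 lies on the minus strand at chr3:95042565-95042864, with the ETS core CGGAAG in capitals. Psme1 lies on the plus strand at chr14:55578244-55578543, with letters of the interferon response element in capitals, again as reverse-strand letters.
Psmc6: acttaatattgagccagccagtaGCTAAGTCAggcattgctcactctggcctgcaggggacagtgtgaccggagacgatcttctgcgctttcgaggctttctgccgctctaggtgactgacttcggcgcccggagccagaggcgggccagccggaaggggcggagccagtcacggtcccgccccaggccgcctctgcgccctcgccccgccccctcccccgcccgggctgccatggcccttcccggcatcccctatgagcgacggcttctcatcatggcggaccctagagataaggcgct
Psmb6: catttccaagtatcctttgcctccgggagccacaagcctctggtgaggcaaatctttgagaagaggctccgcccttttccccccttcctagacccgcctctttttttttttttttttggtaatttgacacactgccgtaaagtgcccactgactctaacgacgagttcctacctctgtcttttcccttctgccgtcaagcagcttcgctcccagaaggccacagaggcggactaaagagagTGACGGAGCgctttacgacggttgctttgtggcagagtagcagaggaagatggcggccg
Psmd4: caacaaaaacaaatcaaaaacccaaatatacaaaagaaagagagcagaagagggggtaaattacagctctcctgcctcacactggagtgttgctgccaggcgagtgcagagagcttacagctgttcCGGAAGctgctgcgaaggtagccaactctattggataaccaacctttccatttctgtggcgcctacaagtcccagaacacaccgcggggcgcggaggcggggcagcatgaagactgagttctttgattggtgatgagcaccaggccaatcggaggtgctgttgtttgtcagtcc
Psme1: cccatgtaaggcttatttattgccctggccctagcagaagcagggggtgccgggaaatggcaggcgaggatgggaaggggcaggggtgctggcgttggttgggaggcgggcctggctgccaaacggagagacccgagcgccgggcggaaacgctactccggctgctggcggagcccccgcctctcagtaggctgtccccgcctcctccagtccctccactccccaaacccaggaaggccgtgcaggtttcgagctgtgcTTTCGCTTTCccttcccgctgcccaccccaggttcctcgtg

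Counted from the gene's start, with negative positions before it, the motif lies at -227 in Psmc6, -9 in Psmb6, -124 in Psmd4 and 9 in Psme1. Promoters were matched for 39 of the 46 genes (42 promoters) and were searched on both strands for motifs chosen after the ratios were seen. TGACNNNGC was in 6 of the 42 (14.3%), against 12.4% of all 32851 promoters of the same length, and its genes were Psmb5, Psmb6, Psmc6, Psmd9, Psmd12 and Psme4. Of these 6 genes, 1 was called lower, 1 higher and 4 neither. CGGAAG was in 24 (57.1%), against 16.9% of all promoters; by gene it was in 7 of 10 called lower, 1 of 4 called higher and 15 of 25 not called. GGGCGG, the GC box, was in 21 (50%) against 35.7%, and CCAAT was in 16 (38.1%) against 37.4%. The interferon element was in 4 (9.52%) against 3.44%, in Psmb3, Psmd4, Psmd9 and Psme1. The background promoters were not limited to genes tested in cortex, nor matched to the proteasome genes in brightness. The search did not resolve overlaps between motifs, and matched letters are a description of the window and not a binding site.

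Among the alpha ring genes, 1 of 7 was lower, 2 were higher and 4 were not called, with a median log2 ratio of 0.08. Psma2, an alpha ring subunit, had intensities of 7220, 8433 and 7583 in mutant cortex on replicates 1, 2 and 3, against 8829, 10353 and 9103 in wild-type cortex. All 3 mutant values lay below all 3 wild-type values. How often groups were this separate among all tested genes was not counted, for Psma2 or for the genes below. The log2 ratio of Psma2 was -0.28 ± 0.02 (SD, n = 3 arrays), 82.2% of wild type, with an adjusted p of 0.00542 in limma. Psma5, another ring subunit, read 10823, 12300 and 10924 in mutant cortex, against 9149, 11613 and 9650 in wild-type cortex. It was higher on each array, although the 2 ranges overlapped between arrays, with a ratio of 0.17 ± 0.08 (112% of wild type, limma adjusted p = 0.0411). Psma1 read 6324, 7838 and 6143 in mutant cortex, against 5703, 6728 and 5723 in wild-type cortex, a ratio of 0.16 ± 0.06 (112%, limma adjusted p = 0.038). The Psma1 and Psma5 calls were each lost under 5 of 12 alternatives, among them averaging replicates 1 and 2 (limma adjusted p = 0.123 for Psma1 and 0.0754 for Psma5), no filter on dim probes and subtraction of the negative controls. The Psma2 call was lost under 1, leaving out replicate 1 (limma adjusted p = 0.0618). The 4 genes not called (Psma3, Psma4, Psma6 and Psma7) had mean ratios of -0.08 to 0.17.

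The beta ring holds the 3 cutting subunits of the standard core, of which 1 was called lower, 1 higher and 1 neither. Psmb7, with trypsin-like activity, read 997, 992 and 1052 in mutant cortex, against 1096, 1245 and 1276 in wild-type cortex, with no overlap between the groups. Its ratio was -0.25 ± 0.10 (84.2% of wild type, limma adjusted p = 0.0178). Psmb6, with caspase-like activity, read 3623, 4102 and 3622 in mutant cortex, against 3234, 3564 and 3249 in wild-type cortex, again with no overlap, and was higher by 0.17 ± 0.02 on the log2 scale (113%, limma adjusted p = 0.0204). Psmb5, with chymotrypsin-like activity, had ratios of 0.06, 0.01 and -0.02 on replicates 1, 2 and 3, a mean of 0.02 ± 0.04 that was not called (limma adjusted p = 0.752). The Psmb6 call was lost under 4 of 12 alternatives (limma adjusted p = 0.0534 to 0.154) and the Psmb7 call under 2 (0.0535 and 0.0604), each including the fits without replicate 1 and without replicate 2. The 4 structural subunits, Psmb1 to Psmb4, were not called and had mean ratios of -0.13 to 0.01. Over the 14 alpha and beta ring genes the median ratio was 0.01, with 2 lower, 3 higher and 9 not called.

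The immunoproteasome subunits, which replace the standard cutting subunits in immune cells and after interferon, were not called: 0 of 3, and 0 of 3 at an unadjusted p of 0.05 in limma. Psmb10 had a ratio of -0.0036 ± 0.02 (limma adjusted p = 0.948). Psmb8 had -0.04 ± 0.16 on its brightest probe (limma adjusted p = 0.683) and -0.08 ± 0.13 on its other probe (0.317). Psmb9 had -0.08 ± 0.06 (limma adjusted p = 0.207), and among the alternatives it was called lower only with estimated array weights (-0.12, limma adjusted p = 0.00533). The Psmb8 and Psmb9 probes were dim, with mean intensities of 219 and 198, against 6988 for the Psmb10 probe. Markers of microglia, the resident immune cells of brain, were lower for 6 of the 9 tested of 10 and higher for 0, with a median ratio of -0.17. The shares of all tested genes were 20.0% lower and 16.0% higher. The summed microglial intensity was 5463, 5777 and 5373 in mutant cortex, against 5659, 6054 and 5697 in wild-type cortex; its part in the immunoproteasome values was not tested.

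Psmb11 had the largest change of the set. It encodes the thymoproteasome subunit, known from cortical epithelial cells of the thymus. Its brightest probe read 1326, 1352 and 1500 in mutant cortex, against 2948, 2390 and 2667 in wild-type cortex. The groups were well apart on every array, with ratios of -1.15, -0.82 and -0.83, a mean of -0.94 ± 0.19 (52.3% of wild type, limma adjusted p = 0.00259). The second probe, assigned to the same transcript, gave another picture. It read 89.3, 86.1 and 113 in the mutant channel, against 79.2, 95.3 and 84.8 in the wild-type channel. Those intensities were close to the medians of the negative control spots, which were 75.5, 78.8 and 81.0 in the mutant channel, against 72.3, 81.4 and 77.7 in the wild-type channel. The second probe's ratios had mixed signs (0.17, -0.15 and 0.42). What the bright probe hybridised with in cortex was not tested.

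**Figure D2:**
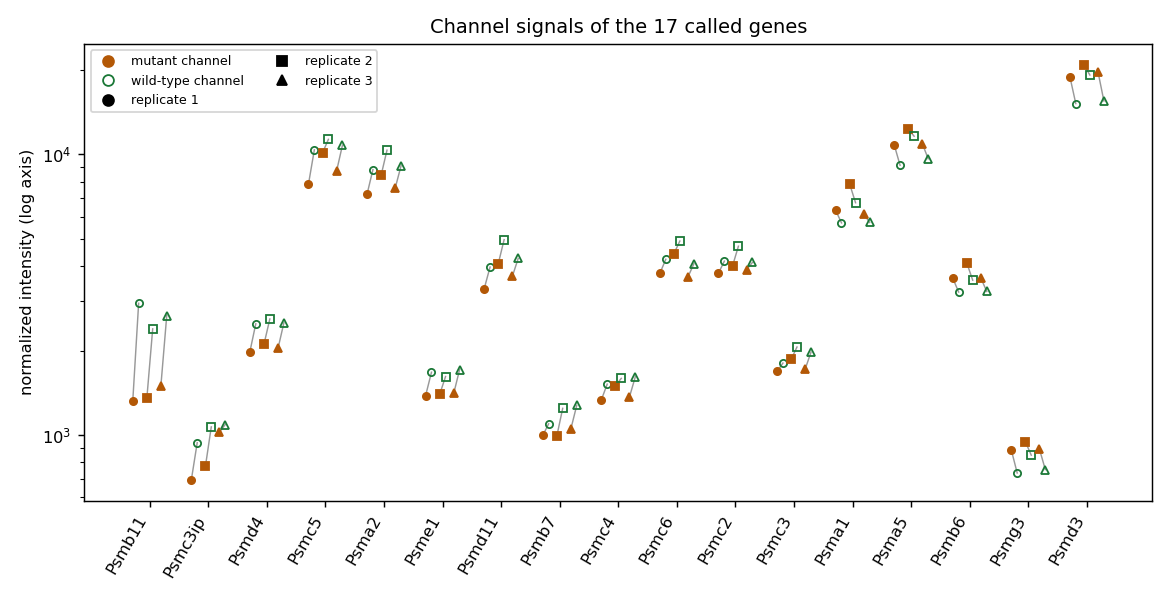
Normalized intensity (log axis) in the mutant channel (filled, left of each pair) and the wild-type channel (open) for the brightest probe of the 17 called proteasome genes, with a line joining the channels of 1 array. Every line of the 12 genes called lower climbs toward wild type and every line of the 5 called higher drops, and the gap is widest for Psmb11 (1326 to 1500 in mutant, 2390 to 2948 in wild type).

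The base ATPases shared 1 sign. All 6 had a negative mean ratio, against 6577 of all 12721 tested genes. Of the 6, 5 were called lower and 0 higher. In the brightest quartile of tested probes, where all 6 lay, 25.0% of all tested genes were lower and 24.4% higher. The median of the 6 ATPases was -0.15 on replicate 1, -0.15 on replicate 2 and -0.18 on replicate 3. They form the ring that unfolds substrates and threads them into the core. Psmc5 read 7845, 10136 and 8732 in mutant cortex, against 10387, 11320 and 10794 in wild-type cortex, which did not overlap; the ratio was -0.29 ± 0.12 (81.8% of wild type, limma adjusted p = 0.0159). A dimmer Psmc5 probe on the same transcript read 1645, 1765 and 1528 in mutant cortex, against 1519, 1689 and 1426 in wild-type cortex. It had a ratio of the other sign, 0.09 ± 0.03, which was not called (limma adjusted p = 0.112), so the direction for Psmc5 rests on 1 of its 2 probes.

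Psmc4 read 1335, 1498 and 1367 in mutant cortex, against 1519, 1592 and 1613 in wild-type cortex, a ratio of -0.17 ± 0.08 (88.8% of wild type, limma adjusted p = 0.0374). Its dimmer probe had -0.09 ± 0.03 and was not called (limma adjusted p = 0.11). Psmc6 had ratios of -0.17, -0.15 and -0.15 on replicates 1, 2 and 3, a mean of -0.16 ± 0.01 (89.8%, limma adjusted p = 0.0262). Its intensities were 3770, 4434 and 3666 in mutant cortex, against 4230, 4913 and 4077 in wild-type cortex, so that the shift was even although the arrays differed in level. Psmc2 had a ratio of -0.15 ± 0.07 (89.9%, limma adjusted p = 0.0489), from 3778, 4006 and 3886 in mutant cortex, against 4166, 4709 and 4124 in wild-type cortex. Psmc3 had -0.15 ± 0.05 (90.2%, limma adjusted p = 0.0399), from 1685, 1859 and 1718 in mutant cortex, against 1805, 2059 and 1976 in wild-type cortex. All 5 ATPase calls were lost without replicate 1 (limma adjusted p = 0.11 to 0.227), those of Psmc2, Psmc3 and Psmc6 without replicate 2 (0.0575 to 0.124), and those of Psmc3 and Psmc4 without replicate 3 (0.107 for Psmc3 and 0.0868 for Psmc4). The Psmc2 call was also lost with loess or centring of the arrays, and the Psmc3 call with a dye term. With negative controls subtracted, Psmc2, Psmc3, Psmc4 and Psmc6 lost their calls (limma adjusted p = 0.0689 to 0.0937). The same genes lost them with replicates 1 and 2 averaged (0.0782 to 0.144), so that Psmc5 alone kept its call under either change. With no filter on dim probes Psmc2, Psmc3 and Psmc4 lost theirs (0.0542 to 0.0718). The remaining ATPase, Psmc1, had a ratio of -0.07 ± 0.07 and was not called (limma adjusted p = 0.3).

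Psmd4, a ubiquitin receptor of the base, had the smallest adjusted p in the regulatory particle. It read 1984, 2107 and 2038 in mutant cortex, against 2491, 2592 and 2512 in wild-type cortex. The groups were clearly separate, and the ratio was -0.31 ± 0.02 (80.7% of wild type, limma adjusted p = 0.00449). Psmd2, a scaffold of the base that docks ubiquitin-like proteins, was read by a brightest probe that just missed the threshold. That probe had -0.12 ± 0.01 (limma adjusted p = 0.0563), whereas its dimmer probe had -0.25 ± 0.08 and was lower (0.0136).

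In the lid 1 of 8 genes was lower, 1 was higher and 6 were not called. Psmd11, a scaffold subunit, read 3324, 4079 and 3673 in mutant cortex, against 3970, 4970 and 4258 in wild-type cortex, with a ratio of -0.25 ± 0.04 (84.0% of wild type, limma adjusted p = 0.00796). Psmd3, another structural subunit, went the other way. It read 18898, 20875 and 19657 in mutant cortex, against 15179, 19187 and 15508 in wild-type cortex. Its gap was smaller on replicate 2 (ratios of 0.32, 0.12 and 0.34), and the mean was 0.26 ± 0.12 (120%, limma adjusted p = 0.021). Psmd14, the deubiquitinating enzyme of the lid, and Psmd7, its structural partner, were not called on their brightest probes, at 0.04 ± 0.16 (limma adjusted p = 0.711) and -0.09 ± 0.21 (0.437). On a dimmer probe Psmd14 was higher, at 0.24 ± 0.16 (limma adjusted p = 0.0413), and on a dimmer probe Psmd7 was lower, at -0.32 ± 0.11 (0.00941). Psmd2, Psmd7 and Psmd14 are named because of these calls, after their values were seen.

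Together the base and lid had 7 of 16 genes lower, 1 higher and 8 not called, against 20.0% lower and 16.0% higher of all tested genes. In the brightest quartile of tested probes, where all 16 but Psmd8 and Psmd13 lay, 25.0% of all tested genes were lower and 24.4% higher. Of the mean ratios of these 16 genes, 14 were negative. Their median ratio was -0.10, with -0.10, -0.13 and -0.15 on replicates 1, 2 and 3, against 0.01 over the 14 core ring genes, with 0.02, 0.07 and -0.04. The difference between the regulatory particle and the core was not tested, since subunits are not replicates of a condition.

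Among alternative caps, Psme1, a subunit of the interferon-inducible activator, read 1383, 1396 and 1408 in mutant cortex, against 1675, 1616 and 1712 in wild-type cortex. The groups did not overlap, and the ratio was -0.26 ± 0.04 (83.7% of wild type, limma adjusted p = 0.00774). Psme3, the nuclear activator, and Psme4, a single-chain activator, were not called, with mean ratios of -0.12 and -0.03. Psmf1, a regulator that binds the core, was not called either, and its probes differed in sign (-0.12 and 0.17). Of the core assembly chaperones, Psmg3 read 883, 946 and 890 in mutant cortex, against 732, 848 and 753 in wild-type cortex. All mutant values exceeded all wild-type values, and the ratio was 0.22 ± 0.06 (117%, limma adjusted p = 0.0138). Psmg1 and Psmg2 were not called, at 0.02 and -0.19. The base chaperones Psmd5, Psmd9 and Psmd10 had positive means of 0.04 to 0.26 and were not called. Psmd5, singled out after its values were seen, had 0.27, 0.48 and 0.04 on replicates 1, 2 and 3 (limma adjusted p = 0.0664).

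The symbol rule also took in Psmc3ip, which acts in meiotic recombination, and Psme3ip1, an interactor of Psme3, which are not proteasome subunits. Psmc3ip was lower on both probes. The brighter read 693, 773 and 1026 in mutant cortex, against 939, 1069 and 1090 in wild-type cortex, a ratio of -0.33 ± 0.21 (79.5% of wild type, limma adjusted p = 0.0323). Its shift was smallest on replicate 3. The dimmer probe had -0.30 ± 0.10 (limma adjusted p = 0.0102). Psme3ip1 was not called. Without these genes and Psmb11, 10 of 43 genes (23.3%) were lower and 5 (11.6%) were higher, against 20% and 16% of all tested genes.

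**Figure D3:**
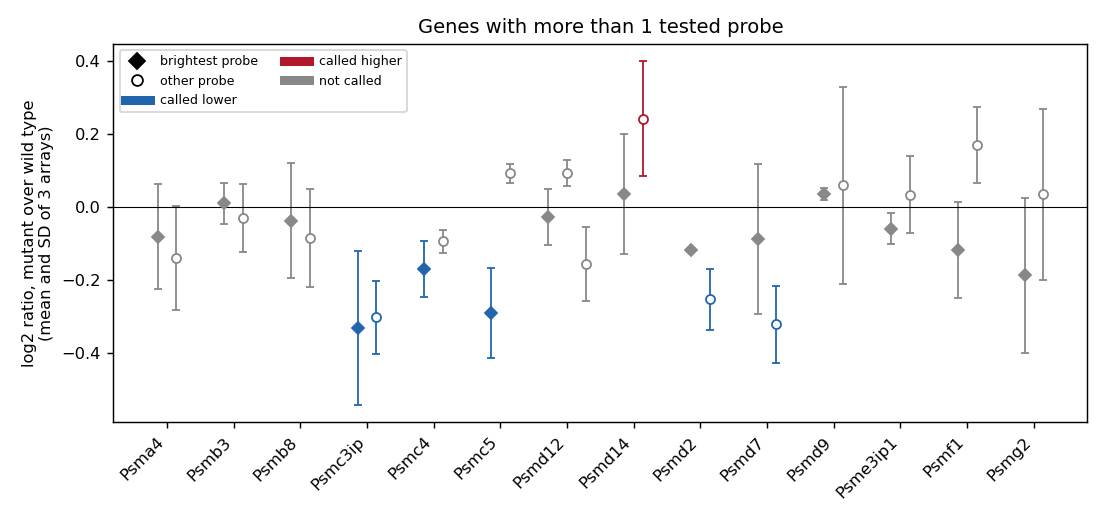
Mean log2 ratio of mutant over wild type with SD over 3 arrays for the 14 proteasome genes with more than 1 tested probe; diamonds are the brightest probe, circles the others, and colour gives the call. Blue marks lower, red higher and grey not called; Psmc3ip has 2 blue probes, and no gene has a blue and a red one.

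Of these 14 genes, 8 had 1 sign in all their tested probes and 0 had probes called in opposite directions (5 had 1 probe called and 1 had 2). The distance between a gene's highest and lowest probe had a median of 0.11 and a largest value of 0.38, in Psmc5. The Psmc5 distance was larger than the mean ratio of every called gene except Psmb11.

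Proteasome genes were bright: the median intensity of the 46 brightest probes was 2178, against 500 over all tested genes, and 33 of the 46 lay in the brightest quartile of tested probes. Calls became more frequent with brightness across the array. From the dimmest to the brightest quartile, 9.40%, 17.0%, 23.3% and 25.0% of all genes were lower and 4.57%, 11.3%, 16.6% and 24.4% were higher. In the brightest quartile 12 of 33 proteasome genes (36.4%) were lower and 4 (12.1%) were higher. In the next quartile 0 of 8 were lower and 1 (12.5%) was higher, and of the 5 genes in the dimmer quartiles 0 were called. By the selection rule that the deposited readme gives, a B statistic above 0 in limma, 3 member probes were lower, those of Psmb11, Psmd4 and Psma2, and 0 were higher (9 were higher at an unadjusted p of 0.05). That rule took 6.01% of all tested probes as lower and 3.65% as higher. Only the bright Psmb11 probe was changed by at least 1.5-fold with an adjusted p under the threshold, against 1.49% of all probes lower and 0.519% higher by that rule.

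**Figure D4:**
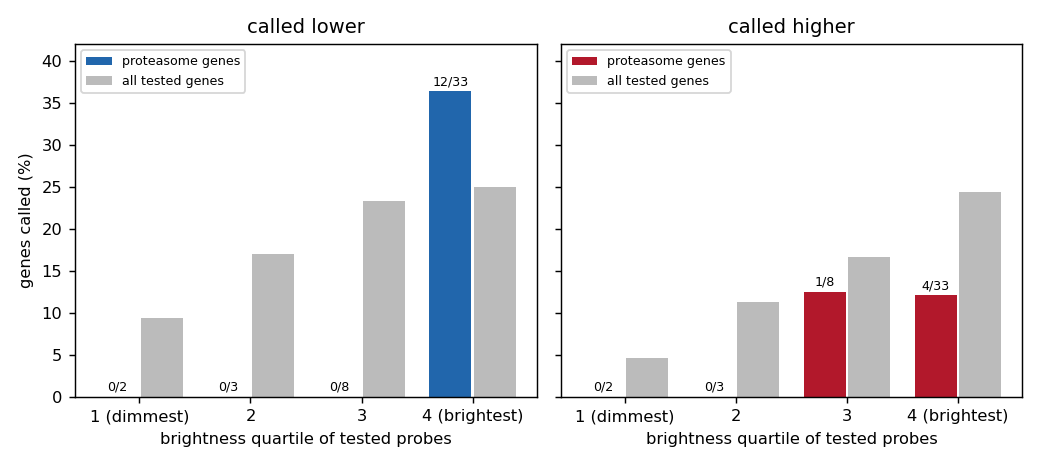
Percent of genes called lower (left) and higher (right) in each brightness quartile of tested probes, for proteasome genes (coloured, with called over measured genes printed) and all tested genes (grey). In the brightest quartile 12 of 33 proteasome genes are lower against 25.0% of all genes, and 4 of 33 are higher against 24.4%.

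Calls across the whole array, those of proteasome genes included, depended on replicate 1. All 17 called genes had 1 sign on all 3 arrays, which the call itself favours because it uses the same 3 ratios. Of all tested genes, called or not, 35.4% were negative and 31.2% positive on all 3 arrays. Without replicate 1, 1 of the 46 genes, Psmb11, was called lower and 0 were called higher in limma, and of all tested genes 5.59% were lower and 3.54% higher. No called gene reversed its sign without replicate 1, but the ratios moved to differing degrees. Those of Psmd4 (-0.30) and Psma2 (-0.28), which had a small SD over the 3 arrays, changed little. Larger moves included those of Psmc5 (-0.29 to -0.23), Psma5 (0.17 to 0.13), Psmb7 (-0.25 to -0.30) and Psmb11 (-0.94 to -0.83). At an unadjusted p of 0.05 in limma the counts without replicate 1 were 10 lower and 3 higher, against 14 and 7 with all arrays. The shares of all tested genes at that unadjusted threshold were not counted, so these counts have no background beside them. Without replicate 2, 9 genes were lower and 3 higher by adjusted p, against 15.5% and 12.4% of all tested genes. Replicate 3 was the array with low thalamus markers in wild-type RNA. Without it, 10 were lower and 6 higher, against 21.0% and 16.9% of all. The genes that lost their call without replicate 2 were Psma1, Psmb6, Psmb7, Psmc2, Psmc3, Psmc6 and Psmc3ip (limma adjusted p = 0.0567 to 0.124), and those without replicate 3 were Psma5, Psmc3 and Psmc4 (0.062 to 0.107). The other 7, Psma2, Psmc5, Psmd3, Psmd4, Psmd11, Psme1 and Psmg3, lost theirs without replicate 1 but not without replicate 2 or 3, with limma adjusted p-values of 0.0534 (Psmd4) to 0.138 (Psmd3). A term for the dye was called in 0 of 61 member probes in limma (5 at an unadjusted p of 0.05, 8.20%, against 8.75% of all tested probes). It was called in 0 of all 27530 tested probes as well, where the smallest limma adjusted p was 0.0549. Since 3 arrays leave little to estimate the spread once a dye term is fitted, these counts cannot show that a dye effect was absent.

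Genes that work with the proteasome were listed as background. Of 32 ubiquitin genes, receptors, shuttles and regulators, 29 were tested, 10 were lower and 5 were higher, with a median log2 ratio of -0.05. Beside this list and those that follow stand 20.0% lower and 16.0% higher of all tested genes. Genes with the smallest p in this list were lower. Keap1, which holds Nfe2l2 for degradation, had -0.49 ± 0.03 (limma adjusted p = 0.00253), and Ubb, a polyubiquitin gene, had -0.46 ± 0.02 (0.00259). Vcp, the segregase that extracts ubiquitinated proteins, had -0.57 ± 0.11 (limma adjusted p = 0.00304). Chosen after their values were seen, Pomp, the core maturation factor, had -0.27 ± 0.10 (limma adjusted p = 0.0154), and Adrm1, a ubiquitin receptor of the base like Psmd4, had -0.25 ± 0.04 (0.00906). Nfe2l1, an activator of proteasome genes whose motif is shown above, was higher at 0.24 ± 0.08 (limma adjusted p = 0.0152).

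The COP9 signalosome, whose subunits are related to those of the lid, had 1 lower and 2 higher of 9 tested of 10, with a median of -0.04. Gps1 was lower at -0.35 ± 0.15 (limma adjusted p = 0.0126), Cops7a was higher at 0.26 ± 0.10 (0.0154) and Cops4 was higher at 0.14 ± 0.05 (0.045). Peptide loading on MHC class I, which uses proteasome products, had 4 lower and 2 higher of 10 tested of 12, with a median of -0.12. The endoplasmic reticulum lectins of this pathway split, with Canx higher at 0.37 ± 0.04 (limma adjusted p = 0.00364) and Calr lower at -0.35 ± 0.09 (0.00667). Tapbpl, a peptide editor, was lower at -0.24 ± 0.04 (limma adjusted p = 0.00881), and Irf1, an inducer of immunoproteasome genes, was higher at 0.17 ± 0.05 (0.0253).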

How the data were processed

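Each of 3 arrays compared pooled mutant with pooled wild-type cortex RNA. Per the deposited readme and file headers, the authors' array tables hold linear intensities, background-subtracted and normalized, with the channels turned for the dye swap; no source used here gives the normalization method. The numbers carry decimal commas and were converted when read. The value table and the fold table deposited by the authors hold a score, a signed fold, which was used only for checks: 0 spots differed between the value table and the arrays' own fold columns, with medians of -1.01, -1 and 1. The authors' deposited log2 ratio, used as an alternative, differed from the ratio used here by at most 0.00497. No column of per-sample values was left unused (0).

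Spots of a probe were averaged as log2 ratios (41534 gene spots, 41174 probes). Probes whose spots the deposited flag, a foreground over 2 times background, called reliable on at least 2 arrays were fitted in limma 3.58.1 (R 4.3.3; lmFit, eBayes, ratio against 0), with Benjamini-Hochberg adjustment over 27530 probes. Files were read with the R package data.table, version 1.17.8; promoters and figures used Python 3.11.15, pandas 2.3.3 and matplotlib 3.10.9. Accessions were matched without versions to RefSeq on GRCm38.p6, for names and promoters; 21445 probes got a symbol. The brightest tested probe read a gene. Genes were named with their values if that probe passed with 1 sign on all arrays; catalytic and immunoproteasome subunits were named in any case, and up to 4 genes of smallest p per other list, of which 1 is not reported here. Lists of striatum markers (7 of 7 tested, 2 lower, 0 higher) and blood markers (4 of 6 tested, 2 lower, 0 higher) were also read. Of all tested genes 20.0% were lower and 16.0% higher. The members, lists and tests were chosen with earlier results of these data known. The fit was tested on simulated data. Alternatives covered replicates, filter, background, normalization, dye, array weights, probe choice and call rule.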

Additional observations from a re-analysis of the deposited data

How the results depend on the processing

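The fit is already paired, since each ratio sets mutant against wild-type RNA on 1 array, and with 1 ratio per replicate number no further replicate block could be fitted. Leaving out 1 replicate gave 1 to 13 member probes and 1 to 10 member genes lower, and 0 to 8 probes and 0 to 6 genes higher, against 15, 12, 6 and 5 with all arrays; the low ends came without replicate 1. Over the same settings the share of all tested genes called ran from 5.59% to 21.0% lower and from 3.54% to 16.9% higher. Averaging replicates 1 and 2 as 1 sample gave 7 genes lower, 2 higher and 2 probes higher (11.6% and 8.64% of all genes, 7.81% of all probes). With no filter on dim probes 3 probes and 3 genes were higher (8.5% and 10.9% of all), and with negative controls subtracted 2 and 2 (12.7% and 13% of all). That subtraction left 8 genes (17.4%) lower, against 19% of all. Estimated array weights (5.84, 0.373 and 0.459 on replicates 1, 2 and 3) gave 27 probes (44.3%) and 20 genes (43.5%) lower and 11 probes (18.0%) higher, against 36.1%, 37.4% and 31.6% of all. A B statistic above 0 gave 3 probes lower and 0 higher, and a 1.5-fold minimum gave 1 and 0. The cause of these shifts was not tested, apart from the fewer arrays and stricter rules themselves. Loess, centring on the median, a dye term, reliability on all 3 arrays, the authors' ratio and the other ways to read a gene moved these counts by less than 1.5 times. The median ratio stayed negative, from -0.09 to -0.04. Of the 17 called genes, Psmb11 kept its call under all 12 alternatives tried for single genes (limma adjusted p = 4.12e-05 to 0.0158); 49 of 204 such results lost the call and 0 reversed. The calls lost numbered 16 without replicate 1, 7 without replicate 2 and 3 without replicate 3. Psmb9, not called in the main fit, gained a lower call with estimated array weights (limma adjusted p = 0.00533). Dim probes such as those of Psmb8 and Psmb9 lay nearest to the negative controls, which limits what can be read from them.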
